A study of Drosophila melanogaster with 6 samples.

Results

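Chromosome 4 of Drosophila melanogaster was followed along its whole assembled length, from the first to the last 100 bp window that the deposited files list for it on genome build dm3. These are 13519 of the 1687367 windows in each file, and the rule is the chromosome name alone, with no threshold on a measured value. The labels describe chromatin from ovaries of virgin females under 6 h old, fixed in 1.8% formaldehyde, from su(Hw)f mutants, here also called the mutant (strain label su(Hw)fv) and from wild type (Canton S). Each genotype has 1 preimmune library and 1 input library here, so every group is a single library. Preimmune is usually fixed chromatin brought down with serum drawn before immunisation, and input sheared chromatin before any precipitation. The libraries are named so by their source labels, but the antibody field reads anti-Su(Hw) for all of them. The track names call the preimmune libraries igG, which does not name a preimmune serum. The serum behind the preimmune values therefore rests on the source label. The 2 libraries made with antibody against Su(Hw), a zinc finger protein of the gypsy insulator, are not analysed here. The genotypes are also different strains, so the mutation and the strain background cannot be told apart.

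Chromosome 4 is the smallest chromosome of the fly. Most of it is packed as heterochromatin marked by HP1a, yet its assembled arm carries many active genes, and the protein POF coats that arm. Genes and repeats lie interspersed along it, and normally it does not cross over. In RefSeq's Release 6 table chromosome 4 lists 114 genes, 80 of them protein coding, in an order that includes ci, pan, zfh2, ey and toy. ci is the transcription factor at the end of Hedgehog signalling, pan is the fly TCF of Wingless signalling, and ey and toy are Pax6 genes of eye development. Release 6 and dm3 are different builds, so no window below is assigned to a gene, and no sequence is printed because no dm3 sequence was used.

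The libraries held 20130453 reads in mutant preimmune, 20596448 in mutant input, 12173312 in wild-type preimmune and 13993582 in wild-type input. Chromosome 4 received 153068, 99873, 125715 and 89728 of them in the same order. Reads were scaled to each library's sum over 6 major arms, namely 2L, 2R, 3L, 3R, X and 4 itself. With 1 library per group there is no replicate error and no test. Intervals in parentheses are 95% exact conditional (Clopper-Pearson) intervals that cover counting error only, and no difference below has a replicate check. The variance between neighbouring 100 bp windows of chromosome 4 exceeded counting error, at 4.48 times the Poisson value in mutant preimmune, 2.43 times in mutant input, 4.02 times in wild-type preimmune and 1.73 times in wild-type input. On the large arms these values were alike, at 4.18, 2.77, 3.76 and 1.77 in that order. The printed intervals leave this scatter out and are likely too narrow. Differences in level between neighbours that the libraries share are part of it and would cancel in a ratio. It therefore does not measure how far the intervals fall short.

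Chromosome 4 was covered more thinly than the large arms in every library, but to very different degrees. Its mean count per 100 bp window was 0.688 times that of the 5 large arms in mutant preimmune, 0.436 times in mutant input, 0.943 times in wild-type preimmune and 0.580 times in wild-type input. Among the large arms themselves the mean per window stayed between 0.934 and 1.061 times their common mean in these libraries. Wild-type preimmune was thus the library in which chromosome 4 came closest to the large arms, and mutant input the one in which it lay furthest below them.

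Part of the thin coverage was DNA to which no read was assigned. Empty 100 bp windows made up 22.8% of chromosome 4 in mutant preimmune, 24.9% in mutant input, 21.1% in wild-type preimmune and 20.1% in wild-type input, against 7.56% to 9.86% of the large arms. In all 4 libraries together 2279 of the 13519 windows (16.9%) were empty. They formed 216 runs, and the 3 longest made up 51.9% of the empty windows. These were 1 to 51700 at the start of the assembled chromosome, 1285201 to 1320200 and 1320301 to 1351900 at its end. The window between the last 2 runs held 3 reads in mutant preimmune and 7 in mutant input, and 0 in either wild-type library. The part that repeated sequence plays in the empty windows was not tested. Inside the chromosome the longest runs were 692301 to 700800 and 340601 to 348800. Among windows that held reads, the chromosome 4 mean was 0.813 times the large-arm mean in mutant preimmune and 0.529 times in mutant input. It was 1.08 times in wild-type preimmune and 0.671 times in wild-type input, so leaving out empty windows placed wild-type preimmune above the large arms and left the other 3 libraries below them.

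**Figure D1:**
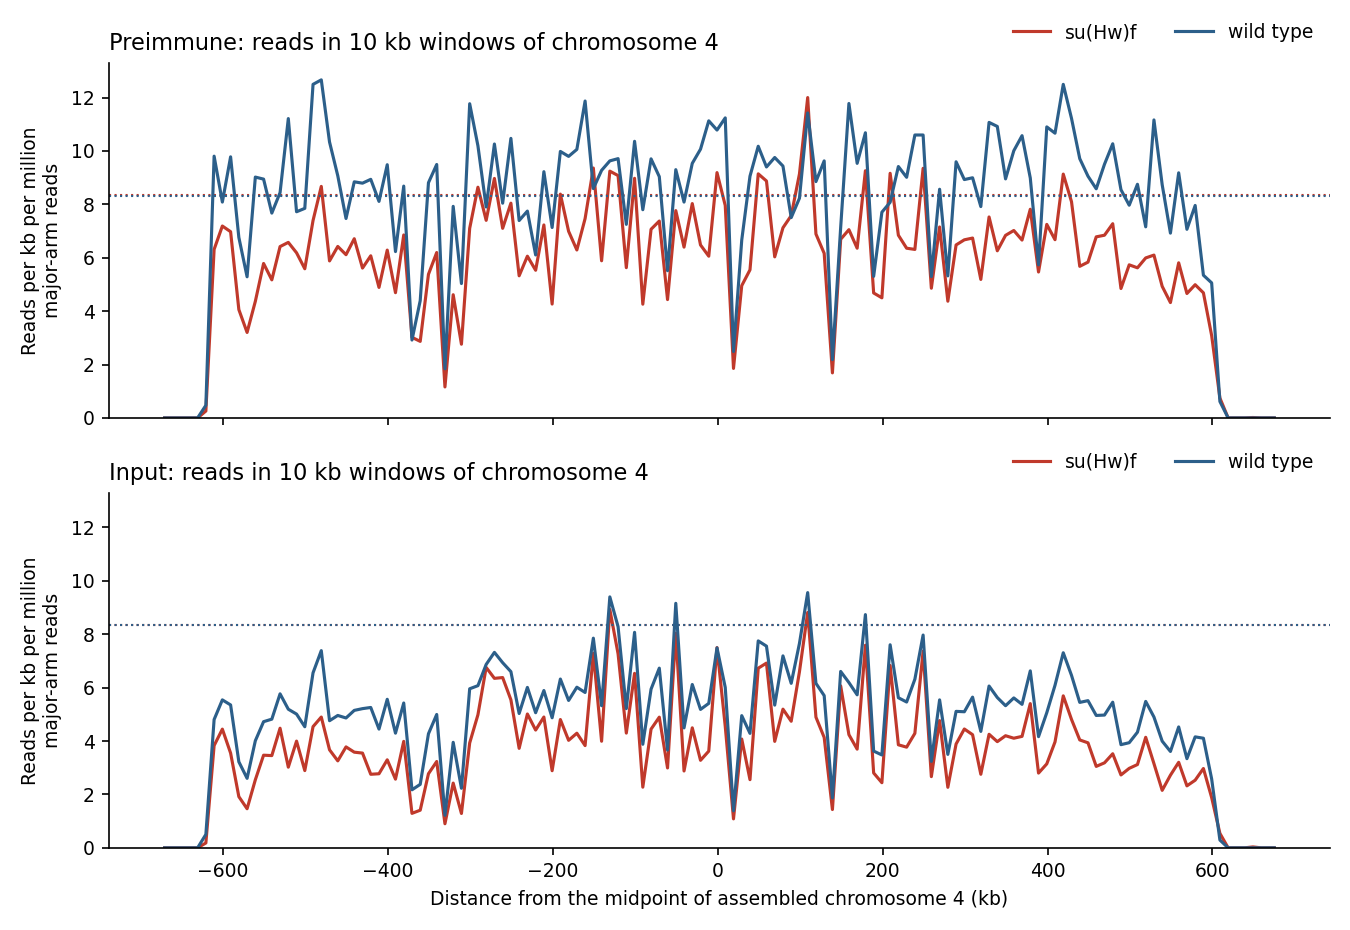
Reads per kb per 1000000 major-arm reads in 10 kb windows of chromosome 4, in preimmune (top) and input (bottom), against distance from the midpoint of the assembled chromosome in kb. Red lines are su(Hw)f, blue lines are wild type, and dotted lines are each library's large-arm mean; both input lines lie mostly below the dotted lines, while wild-type preimmune runs around its own.

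Levels varied more from window to window on chromosome 4 than on the large arms. Over 1 kb windows with reads, the 90th percentile was 4.63 times the 10th in mutant preimmune, 7.08 times in mutant input, 3.40 times in wild-type preimmune and 3.97 times in wild-type input. On the large arms the same spread was 2.25, 4.12, 2.53 and 2.65 times in that order. The chromosome 4 spread was the wider in each of the 4 libraries, and mutant input was the most uneven. The fullest 1 kb windows were not the same in all libraries. In mutant preimmune they were 87001 to 88000 with 389 reads, 578001 to 579000 with 374 and 219001 to 220000 with 360. In mutant input they were 626001 to 627000 with 378 reads, 411001 to 412000 with 377 and 677001 to 678000 with 351. Wild-type preimmune peaked elsewhere, at 681001 to 682000 with 300 reads, 1090001 to 1091000 with 257 and 61001 to 62000 with 250. Wild-type input shared its fullest window, 626001 to 627000 with 287 reads, with mutant input, and was followed by 447001 to 448000 with 224 and 1054001 to 1055000 with 219.

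The order of 10 kb windows by level was nearly the same in the inputs. Spearman's rho over 124 windows was 0.945 between mutant input and wild-type input. Mutant preimmune followed wild-type input at 0.917 and mutant input at 0.876, and wild-type preimmune at 0.706. Wild-type preimmune followed wild-type input at 0.659 and mutant input at 0.537. The mutant's preimmune profile along chromosome 4 was therefore closer in rank to the inputs than to the other preimmune library. On the 5 large arms the ranks of the inputs correlated at 0.948 to 0.961, mutant preimmune and wild-type preimmune at 0.194 to 0.328, and wild-type preimmune and wild-type input at -0.008 to 0.171. These are descriptions without a p-value, and the points of each pair share the same blank runs.

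Preimmune over input asks, if the source labels hold, which DNA comes down with control serum. Chromosome 4 was higher in preimmune than in input in both genotypes and along nearly its whole length. In su(Hw)f the ratio for the whole chromosome was 1.58 (1.56 to 1.59) and in wild type it was 1.62 (1.61 to 1.63). The su(Hw)f ratio divided by the wild-type ratio was 0.972 (Wald interval from the 4 counts, 0.961 to 0.984). The heterochromatic scaffolds 2LHet, 2RHet, 3LHet, 3RHet and XHet lay lower, at 1.21 to 1.33 in su(Hw)f and 1.17 to 1.33 in wild type. The median 1 kb window of all major arms stood at 0.14 on the log2 scale in su(Hw)f and 0.02 in wild type. Relative to that median window chromosome 4 was at 1.43 in su(Hw)f and 1.60 in wild type, so the nearness of the genotypes' ratios depended on the scaling.

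The excess was spread over many windows. At 10 kb, 81 of 124 chromosome 4 windows were at least 1.5-fold higher in preimmune in su(Hw)f, where 4.77% of all windows of the major arms were, and none was 1.5-fold lower, where 2.69% of all windows were. In wild type 86 of 124 were higher, where 7.87% of all windows were, and none was lower, against 7.62%. A ratio above 1 was seen in 123 of the 124 windows in each genotype, and in 122 in both, where 58.8% of all windows were above 1 in su(Hw)f and 53.5% in wild type. The lowest window was 620001 to 630000 in su(Hw)f at 0.966 (0.900 to 1.04) and 50001 to 60000 in wild type at 0.938 (0.648 to 1.35), next to the run without reads. Each genotype's only window below 1 therefore had an interval that included 1. The highest was 300001 to 310000 in su(Hw)f at 2.34 (2.02 to 2.71) and 1200001 to 1210000 in wild type at 2.28 (2.07 to 2.50).

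At 1 kb, with a threshold of 2-fold and 20 reads, 424 of 1160 windows were higher in mutant preimmune than in its input and 4 were lower. Over all major arms 6.82% were higher and 3.35% lower. In wild type 433 of 1169 were higher and 11 lower, where 9.75% and 10% of all windows were. Chromosome 4 thus held 36.6% higher windows in su(Hw)f and 37.0% in wild type. Taken singly, the large arms held 5.41% to 7.83% higher windows in su(Hw)f, and 7.56% to 11.3% in wild type.

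**Figure D2:**
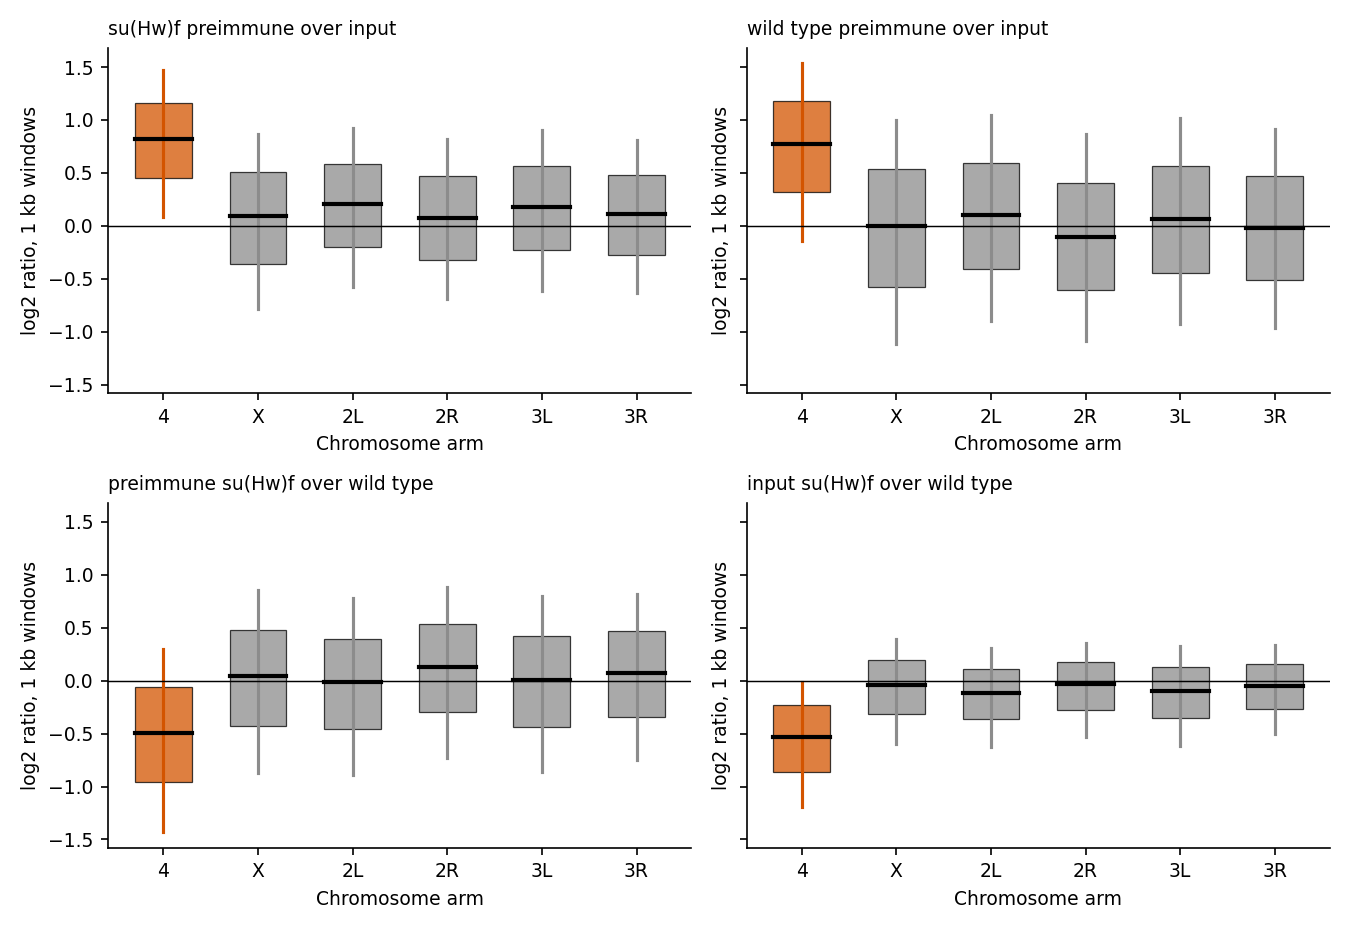
log2 ratios over 1 kb windows of chromosome 4 (orange) and each large arm (grey) for the 4 comparisons named above the panels. Boxes run from the 25th to the 75th percentile, thick lines are medians and thin lines reach the 10th and 90th percentiles; the chromosome 4 median lies above every large-arm median for preimmune over input and below every one for su(Hw)f over wild type, while the boxes overlap in part.

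The genotypes share no library in this comparison, and the windows followed each other across them. Over 124 windows of 10 kb the log2 ratios of su(Hw)f and wild type correlated at r = 0.736 and rho = 0.709, and over 1156 windows of 1 kb at r = 0.510 and rho = 0.486. On the large arms r was 0.816 to 0.844 at 10 kb and 0.682 to 0.725 at 1 kb, so chromosome 4 had the lower correlation at either size. Of the 1 kb windows tested in both, 235 were called higher in both genotypes. They were 55.7% of those called higher in su(Hw)f and 55.2% of those called higher in wild type, against 47.3% to 49.5% and 31.6% to 34.2% on the large arms, which hold a smaller share of higher windows. None of the 3 called lower in su(Hw)f was among the 11 called lower in wild type, whereas on the large arms 63.1% to 72.5% of the su(Hw)f lower calls were shared. A share of 3 windows is not a measure of overlap.

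The 6 windows of 1 kb that ranked highest by log2 ratio, averaged over su(Hw)f and wild type, were spread over the chromosome. At 949001 to 950000 there were 26 preimmune and 5 input reads in the mutant, a ratio of 5.34 (2.02 to 17.8), and 57 and 12 in wild type, a ratio of 5.49 (2.91 to 11.2). At 1227001 to 1228000 there were 51 and 13 reads in the mutant, a ratio of 4.03 (2.16 to 8.08), and 141 and 28 in wild type, a ratio of 5.82 (3.86 to 9.07). These windows rest on few input reads. The better covered window 715001 to 716000 held 147 preimmune and 38 input reads in the mutant, a ratio of 3.98 (2.77 to 5.84), and 149 and 34 in wild type, a ratio of 5.07 (3.47 to 7.59). The other 3 were 992001 to 993000, 979001 to 980000 and 150001 to 151000, at 3.22 to 4.31 in su(Hw)f and 3.83 to 5.13 in wild type. A common direction in the genotypes was part of the rule that picked these windows. On a grid shifted by 0.5 windows the mean log2 ratio at 949001 to 950000 was 1.38, against 2.36 on the grid used here.

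Windows lower in preimmune were few. The lowest mean ratio was at 166001 to 167000, with 77 preimmune and 149 input reads in the mutant, a ratio of 0.531 (0.398 to 0.704), and 15 and 84 in wild type, a ratio of 0.206 (0.111 to 0.360). Its mean log2 ratio was -0.95 on the shifted grid, against -1.57 on the grid used here. Next came 952001 to 953000, with 12 and 15 reads in su(Hw)f and 4 and 25 in wild type, where the su(Hw)f interval of 0.351 to 1.88 includes 1 and the mean log2 ratio turned to 1.20 on the shifted grid. At 928001 to 929000 the ratio was 0.346 (0.262 to 0.452) in su(Hw)f and 0.662 (0.473 to 0.921) in wild type. At 440001 to 441000 it was 0.652 (0.491 to 0.862) in su(Hw)f and 0.385 (0.244 to 0.593) in wild type. Except for 952001 to 953000, these windows held more than 80 input reads in each genotype, so they were not windows with poor coverage in input.

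Above 0.25 times the large-arm median, preimmune over input was lower the higher the input level, on chromosome 4 and on the large arms. To see this without a shared library, 1 kb windows were classed by their level in the input of the other genotype, as a multiple of that input's large-arm median. The su(Hw)f median of chromosome 4 was 1.10 on the log2 scale over 305 windows at 0.25 to 0.5 times the wild-type input median, and 0.09 over 76 windows above 1.25 times. The large arms stood at 0.78 and -0.38 in the same classes. In wild type chromosome 4 was at 0.98 over 411 windows at 0.25 to 0.5 times the mutant input median and at -0.26 over 82 windows above 1.25 times, against 0.92 and -0.62 on the large arms. Chromosome 4 lay above the large arms in each of the 6 classes in both genotypes.

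Much of chromosome 4 falls in the low classes. Without classes, the chromosome 4 median exceeded that of the large arms by 0.69 on the log2 scale in su(Hw)f and 0.76 in wild type. Within classes, weighted by the number of chromosome 4 windows, the excess was 0.33 in su(Hw)f and 0.13 in wild type. The classes therefore lowered the excess in both genotypes, and more in wild type. The part that base composition, shearing or PCR plays in this relation was not tested.

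**Figure D3:**
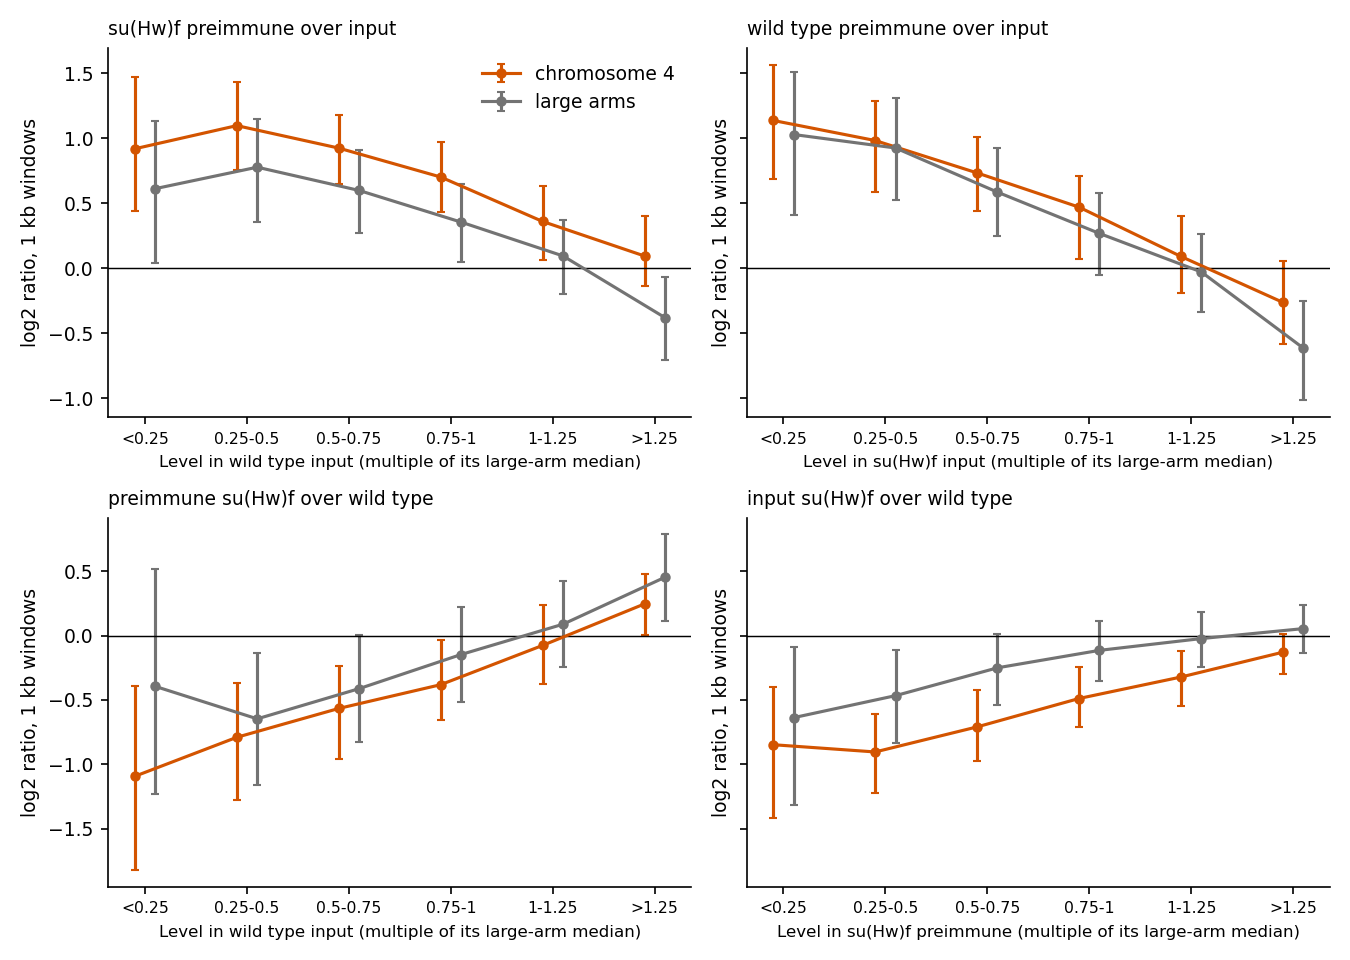
Median log2 ratio of 1 kb windows (points) with the 25th and 75th percentiles (bars), on chromosome 4 (orange) and the large arms (grey), by level in a library that the comparison does not use. Level is a multiple of that library's large-arm median; chromosome 4 is above the large arms in every class of the upper panels and below them in every class of the lower panels.

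The comparison of su(Hw)f with wild type asks where the genotypes differ in recovered DNA. Chromosome 4 was lower in su(Hw)f in both kinds of library. The ratio for the whole chromosome was 0.732 (0.726 to 0.737) in preimmune and 0.752 (0.746 to 0.759) in input. Odd-numbered and even-numbered 100 bp windows taken separately gave 0.733 and 0.731 in preimmune and 0.754 and 0.751 in input. Both sets come from the same libraries, so they are not replicates and show nothing about variation between libraries. Relative to the median 1 kb window of all arms the ratio was 0.708 in preimmune and 0.787 in input. The heterochromatic scaffolds were also lower in su(Hw)f, at 0.684 to 0.888 in preimmune and 0.662 to 0.882 in input, and 2RHet lay below chromosome 4 in both. The single large arms ranged from 0.964 to 1.06 in preimmune and from 0.973 to 1.03 in input.

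The lower level was spread over most of the chromosome. At 10 kb, 48 of 124 windows were at least 1.5-fold lower in mutant preimmune, where 3.42% of all windows were, and none was higher, against 2.57% of all windows. In input 37 of 124 were lower, against 1.34% of all windows, and 1 was higher, against 0.294%. A ratio below 1 was found in 117 windows in preimmune and 122 in input, where 50.2% and 56.8% of all windows were below 1, and in 116 in both. At 1 kb and 2-fold, 272 of 1173 windows were lower in preimmune and 18 higher, against 6.67% and 5.96% of all windows. In input 204 of 1159 were lower and 2 higher, against 2.25% and 0.226% of all windows. At this size 77.3% of chromosome 4 windows were below 1 in preimmune and 90.2% in input, against 47.4% and 57.8% of all windows. On chromosome 4, 266 and 114 windows were above 1.

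The preimmune and input comparisons share no library, and the 10 kb log2 ratios correlated at r = 0.678 and rho = 0.686 over 124 windows. Both called 24 windows lower, which is 50% of the preimmune calls and 64.9% of the input calls, against 10% to 41.5% and 52.4% to 100% on the large arms. At 1 kb they shared 106 lower windows, 40.9% of those called in preimmune and 52.2% of those called in input among 1156 windows tested in both, against 14.9% to 22.3% and 51.6% to 59.6% on the large arms. The shares of the input calls thus lay within the large-arm range at both sizes. Many more windows were called on chromosome 4, however. At 10 kb preimmune called 38.7% of its windows lower, against 3.05% of large-arm windows. Input called 29.8% lower, against 1.04%. More calls coincide by chance where more windows are called, so these shares do not show sharing as close as on the large arms. The overlap due to chance was not computed. The SD of the log2 ratio over the 10 kb windows was 0.26 in preimmune and 0.25 in input. As an error within the libraries, odd-numbered and even-numbered 100 bp windows of the same 10 kb were compared, and the SD of their difference divided by 2 was 0.16 in preimmune and 0.09 in input. The spread along the chromosome was wider than this error, which was taken over 123 of the 124 windows. The input SD includes the sparse edge windows 50001 to 60000 at -1.46 and 1280001 to 1290000 at 0.88.

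The lower level in su(Hw)f was also set beside large-arm windows of like level. In preimmune, classed by level in wild-type input, chromosome 4 was below the large arms in each of the 6 classes, by 0.14 to 0.70 on the log2 scale of the medians. Weighted by the number of chromosome 4 windows the difference was -0.21, against -0.55 without classes. For input the classes were taken from mutant preimmune, whose ranks followed the inputs on the large arms at rho of 0.724 to 0.831. Chromosome 4 was below the large arms in each of these 6 classes too, by 0.18 to 0.46, and the weighted difference was -0.37, against -0.47 without classes. Classing by level thus made the difference smaller in preimmune and, with classes of mutant preimmune, in input. Classes of wild-type preimmune left the input difference at -0.47. Each class library shares its genotype with 1 side of the ratio, so class and ratio are not independent.

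Among 10 kb windows called lower in input, 4 of the 6 longest runs lay in the left part of the chromosome. The last of the 6 tied in length with 1070001 to 1090000 and had the lower ratio. At 250001 to 290000 su(Hw)f held 4331 preimmune and 2313 input reads and wild type 3886 and 2683, ratios of 0.670 in preimmune (0.641 to 0.699) and 0.583 in input (0.551 to 0.616). At 80001 to 120000 the ratios were 0.603 in preimmune and 0.624 in input, at 300001 to 340000 0.682 and 0.630, and at 350001 to 380000 0.585 and 0.629. Near the right end, 1130001 to 1160000 was at 0.737 in preimmune and 0.634 in input, and 1200001 to 1220000 at 0.554 (0.523 to 0.588) and 0.597 (0.549 to 0.648). Each of these 6 runs was below 1 in preimmune too, while 250001 to 290000, 300001 to 340000 and 1130001 to 1160000 stayed short of a 1.5-fold difference there. The only window called higher in input was 1280001 to 1290000, at the edge of the blank right end. It held 147 preimmune and 110 input reads in the mutant and 73 and 40 in wild type, ratios of 1.21 (0.908 to 1.62) and 1.86 (1.28 to 2.74). On a grid shifted by 0.5 windows its input ratio was 0.811.

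**Figure D4:**
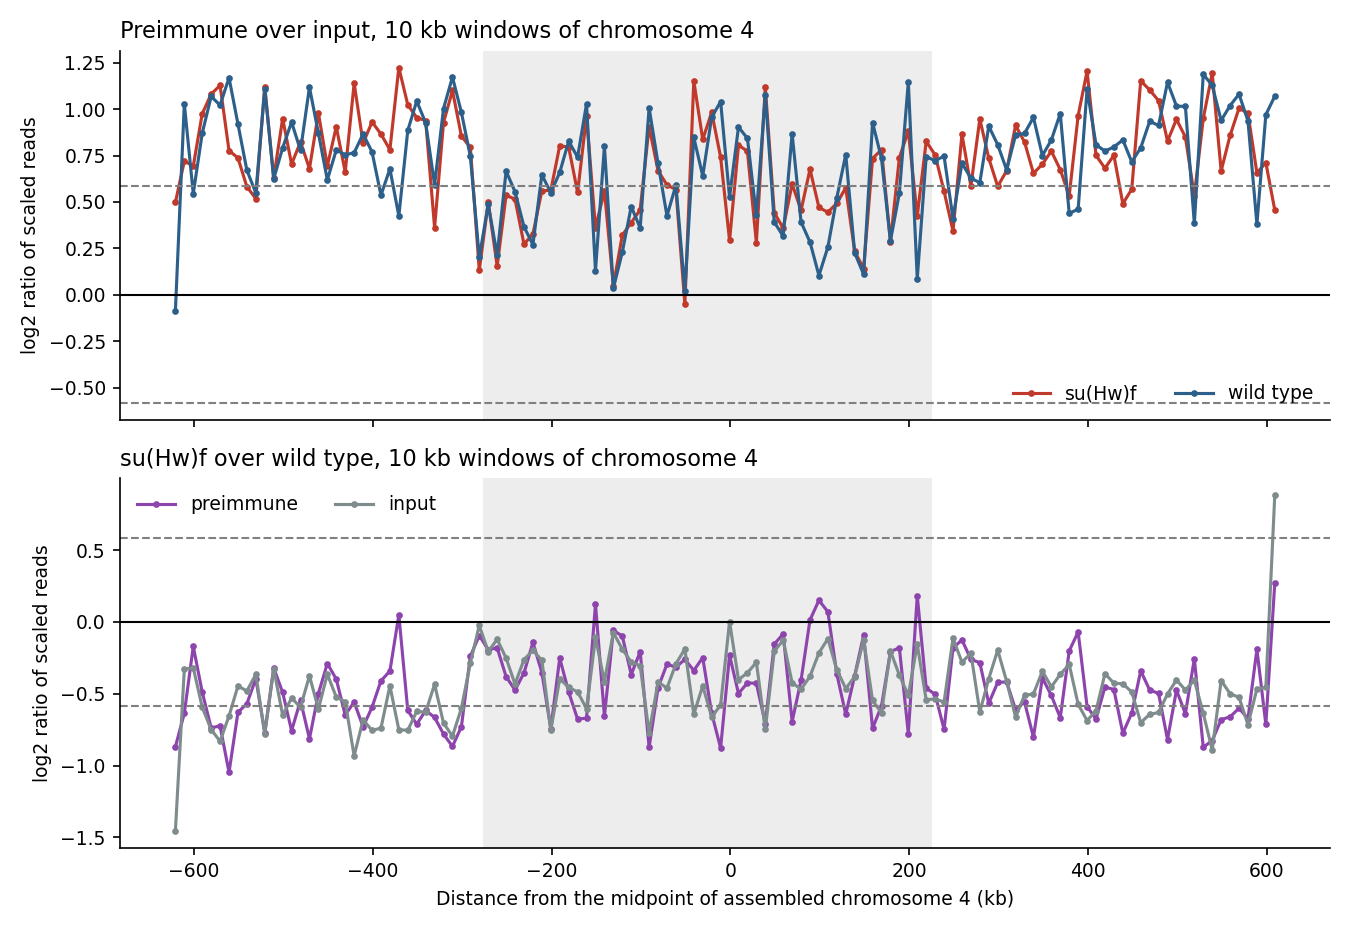
log2 ratios in 10 kb windows along chromosome 4, preimmune over input in su(Hw)f (red) and wild type (blue) above, and su(Hw)f over wild type in preimmune (purple) and input (grey) below. The horizontal axis is distance from the chromosome midpoint in kb, dashed lines mark 1.5-fold and grey shading marks 400001 to 900000, where preimmune over input is mostly lower and su(Hw)f over wild type lies closer to 0 than on either side.

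Along the chromosome the ratios bent in the middle. In 100 kb segments, preimmune over input in su(Hw)f ran from 1.38 (1.34 to 1.41) at 500001 to 600000 to 1.83 (1.76 to 1.90) at 1200001 to 1300000. In wild type it ran from 1.36 (1.32 to 1.40) at 700001 to 800000 to 1.97 (1.90 to 2.04) at 1200001 to 1300000. Both genotypes therefore had their lowest segments in the middle and their highest at the right end. su(Hw)f over wild type was highest at 700001 to 800000 in either kind of library, at 0.854 (0.833 to 0.875) in preimmune and 0.818 (0.796 to 0.841) in input. It was lowest at 1200001 to 1300000 in preimmune, at 0.634 (0.614 to 0.654), and at 200001 to 300000 in input, at 0.665 (0.643 to 0.688).

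The middle, 400001 to 900000, was set apart after the profiles were seen, so its contrast with the sides is a description. Preimmune over input there was 1.43 (1.41 to 1.45) in su(Hw)f and 1.45 (1.43 to 1.47) in wild type. On the sides, 51701 to 400000 and 900001 to 1285200, it was 1.72 (1.70 to 1.73) in su(Hw)f and 1.76 (1.74 to 1.79) in wild type. The middle was thus lower by a similar step in each genotype. Called higher at 10 kb were 20 of 50 middle windows and 61 of 74 side windows in su(Hw)f, and 23 of 50 and 63 of 74 in wild type.

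Between genotypes the middle was the less reduced part. su(Hw)f over wild type was 0.788 (0.779 to 0.797) in preimmune and 0.800 (0.789 to 0.810) in input in the middle, and 0.691 (0.685 to 0.698) and 0.711 (0.703 to 0.720) on the sides. Called lower were 12 of 50 middle windows and 36 of 74 side windows in preimmune, and 7 of 50 and 30 of 74 in input. Chromosome 4 was thus lower in su(Hw)f in both extents and both kinds of library.

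The middle also held more input reads per kb, with windows without reads counted in. Such runs lay in both extents, as at 340601 to 348800 on the sides and 692301 to 700800 in the middle. The part that they play in this difference was not tested. Mutant input had 4.84 reads per kb per 1000000 in the middle and 3.41 on the sides, and wild-type input 6.06 and 4.79. Preimmune differed less, with 6.93 and 5.85 in su(Hw)f and 8.79 and 8.46 in wild type. Input level therefore moved with position. Within classes of level in the other genotype's input, the su(Hw)f median of preimmune over input was lower in the middle than on the sides in all 5 classes with at least 20 windows in each extent, by 0.03 to 0.33 on the log2 scale. In wild type it was lower in 4 of 6 classes and higher in the others, with differences from -0.30 to 0.09. The genotype ratio in preimmune differed between middle and sides by 0.01 to 0.03 in the 3 classes from 0.25 to 1 times the wild-type input median, by -0.55 below them and by 0.29 and 0.15 above them. Without classes that difference was 0.14. In input, classed by mutant preimmune, the middle was the higher in all 5 classes with at least 20 windows in each extent, by 0.04 to 0.18, against 0.19 without classes. How far input level sets the bend was not tested further.

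Some short segments had reads in only 1 genotype. Runs of 100 bp windows were listed, by a rule chosen after the data were seen, where both libraries of a genotype were empty and the other genotype held at least 20 reads. There were 11 such runs empty in su(Hw)f, 10100 bp in all, and 4 empty in wild type, 2100 bp in all. That is 8.14 runs per Mb in su(Hw)f and 2.96 in wild type, against 4.05 to 9.60 and 4.09 to 5.34 on the large arms. By number of runs chromosome 4 was thus within the large-arm range for su(Hw)f and below it for wild type. By length the runs took up 0.747% of chromosome 4 in su(Hw)f, above the 0.0677% to 0.641% of the large arms. Most of that length was 1278201 to 1282100 (3900 bp) and 1282201 to 1284200 (2000 bp), near the blank right end. These held only 38 and 30 preimmune reads and 16 and 5 input reads in wild type. The su(Hw)f share by length thus rests largely on thinly covered edge runs. In wild type they took up 0.155%, within the large-arm range of 0.124% to 0.393%. The fullest was 475701 to 477400, with 0 reads in both su(Hw)f libraries and 130 preimmune and 144 input reads in wild type. At the wild-type rate su(Hw)f would have held 216 preimmune and 213 input reads there, and a count of 0 (a limit of 3 counts) allows at most 1.39% of that in preimmune and 1.41% in input. On either side lay 1000 bp without reads in any library, 474701 to 475700 and 477401 to 478400. The 3 kb beyond each blank together held 824 preimmune and 604 input reads in the mutant and 715 and 486 in wild type, ratios of 0.692 and 0.840. Because these blanks hold no reads in any library, the edges of the absence could not be placed. The flanks were near the level of the chromosome.

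Other runs empty in su(Hw)f were shorter or thinner. In wild type 456501 to 457200 held 75 preimmune and 58 input reads, which leaves su(Hw)f at most 2.40% and 3.50%. 1012101 to 1012600 held 52 and 34, 301501 to 302000 held 41 and 14, and 1044801 to 1045100 held 29 and 17. At 924101 to 924300, 278101 to 278200, 891401 to 891500 and 981601 to 981700 wild-type input had only 0 to 3 reads, so absence there rests on preimmune. In the opposite direction, 682901 to 683400 was empty in wild type and held 120 preimmune and 29 input reads in the mutant, which allows wild type at most 4.16% in preimmune and 15.3% in input. The remaining 3 runs empty in wild type were 451901 to 452100, 613601 to 614700 and 515301 to 515600, with 33, 12 and 18 mutant preimmune reads and 12, 28 and 17 mutant input reads. Taken by whole 1 kb windows at under 5% of the other genotype's scaled reads, su(Hw)f lacked 3 of 1145 windows (0.262%). Over all windows of the major arms it lacked 0.139%. The 3 windows are adjacent, starting at 475001, 476001 and 477001. They are the single run 475701 to 477400 cut by the 1 kb grid, not further segments. Wild type lacked none of 1135, where it lacked 0.0794% of all windows, and its least covered window kept 33.5%. On single large arms the su(Hw)f share ran up to 0.551%, on X.

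**Figure D5:**
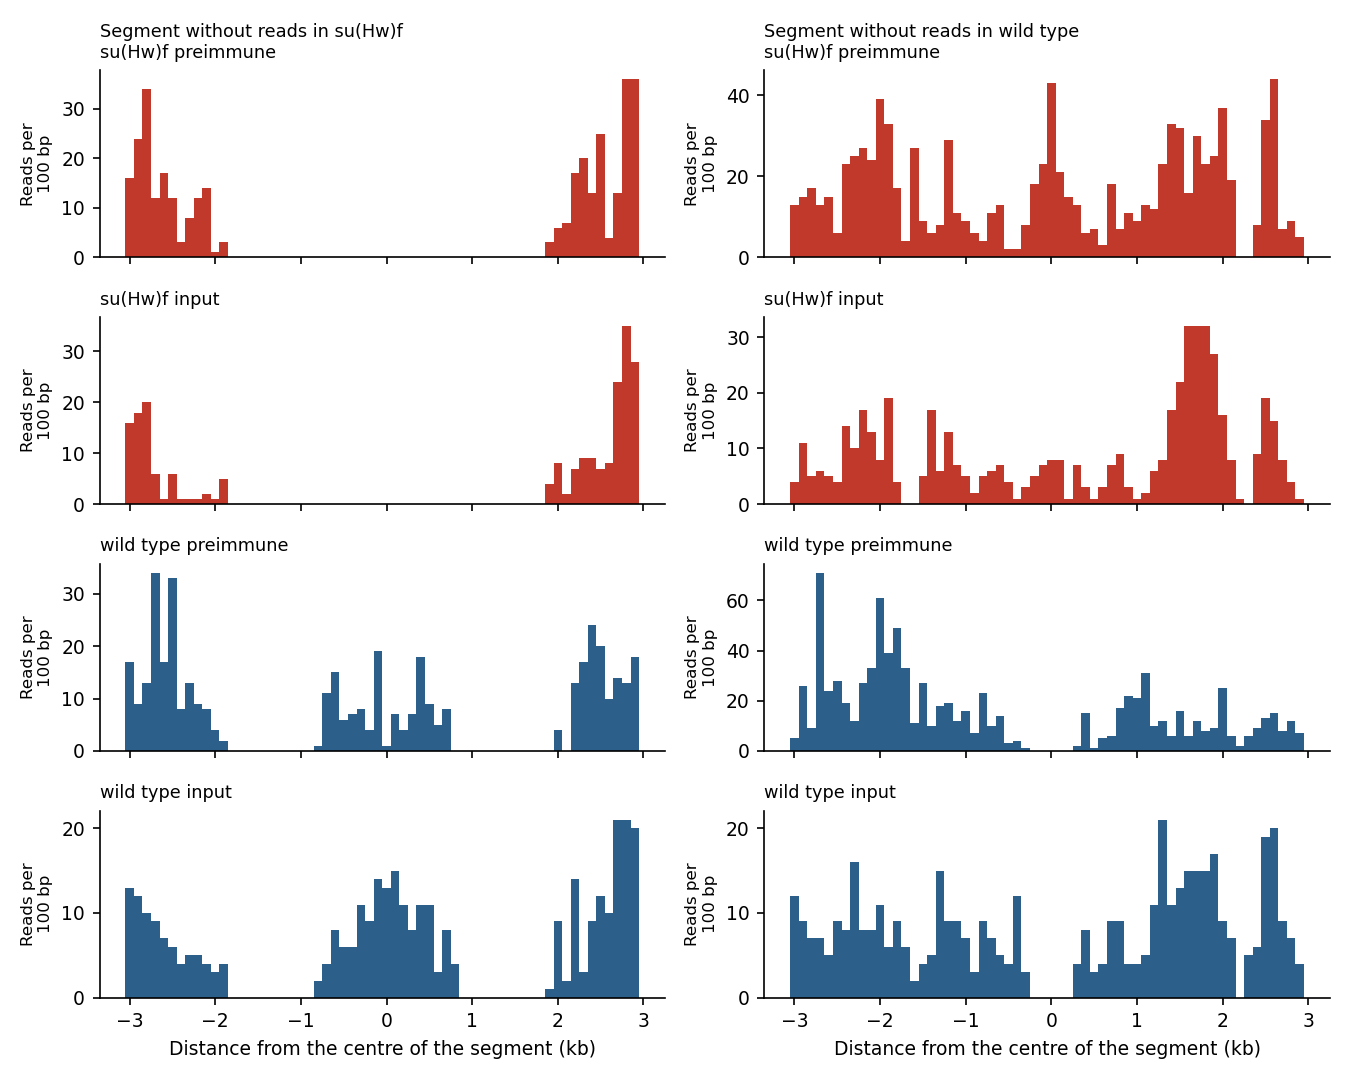
Reads per 100 bp window in the 4 libraries around 475701 to 477400, empty in su(Hw)f (left), and 682901 to 683400, empty in wild type (right), against distance from the segment's centre in kb. Red bars are su(Hw)f and blue bars wild type, each panel has its own vertical scale, and the central bars are missing in the red panels on the left and in the blue panels on the right.

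The 1 kb windows with the lowest su(Hw)f over wild type included that segment. 476001 to 477000 held 0 reads in both su(Hw)f libraries against 81 preimmune and 104 input reads in wild type, and 477001 to 478000 held 0 against 22 and 26. On the grid shifted by 0.5 windows the latter had a mean log2 ratio of 1.55. That shifted window held only 3 preimmune and 4 input reads in the mutant and 0 and 1 in wild type. It falls short of the 20-read minimum, so its value says nothing about the absence. 217001 to 218000 held 17 preimmune and 9 input reads in the mutant and 86 and 20 in wild type, ratios of 0.119 (0.0662 to 0.201) and 0.304 (0.122 to 0.699). 901001 to 902000 was at 0.269 (0.163 to 0.435) in preimmune and 0.160 (0.0681 to 0.337) in input. 709001 to 710000 and 1012001 to 1013000 were at 0.172 and 0.193 in preimmune and 0.239 and 0.280 in input, and the second of them holds the empty run 1012101 to 1012600. A common direction in preimmune and input was again part of the rule. On the shifted grid the mean log2 ratio was -1.11 at 217001 to 218000 and -0.80 at 1012001 to 1013000, against -2.36 and -2.09 on the grid used here.

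Few windows were higher in su(Hw)f. The highest was 1284001 to 1285000, near the blank right end, with 140 preimmune and 101 input reads in the mutant and 35 and 27 in wild type, ratios of 2.40 (1.65 to 3.59) and 2.53 (1.64 to 4.02). It overlaps the second of 1278201 to 1282100 and 1282201 to 1284200, which were empty in su(Hw)f and held 38 and 30 preimmune reads and 16 and 5 input reads in wild type. The direction therefore changed within a few kb at the right end. 677001 to 678000 was at 2.76 (2.09 to 3.70) in preimmune and 1.41 (1.17 to 1.71) in input, and its mean log2 ratio of 0.98 was 0.46 on the shifted grid. 166001 to 167000 and 566001 to 567000 were at 3.08 and 2.18 in preimmune, while their input ratios of 1.20 (0.912 to 1.59) and 1.30 (0.943 to 1.80) had intervals that include 1.

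The 1 kb windows named here lay at the extremes of the difference between genotypes in preimmune over input. How many windows differed was not counted. Over 1156 windows of 1 kb the SD of the difference in log2 ratio was 0.61. The SD of the ratio itself was 0.56 in su(Hw)f and 0.66 in wild type. At 641001 to 642000 su(Hw)f had 70 preimmune and 12 input reads, a ratio of 5.99 (3.22 to 12.2), and wild type 34 and 31, a ratio of 1.27 (0.756 to 2.13). At 453001 to 454000 su(Hw)f had 19 and 15, a ratio of 1.30 (0.627 to 2.75), and wild type 30 and 4, a ratio of 8.67 (3.06 to 33.9). At 465001 to 466000 su(Hw)f was at 1.33 (0.674 to 2.67) and wild type at 5.45 (3.03 to 10.5). In each of these 3 windows the genotypes' intervals did not overlap. They were named for the size of this difference, and it was not tested. On a grid shifted by 0.5 windows the difference changed sign at 641001 to 642000 and at 465001 to 466000, to -0.023 and 0.057 on the log2 scale.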

How the data were processed

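The 4 deposited files hold read counts per 100 bp window on build dm3, as wiggle tracks per the file headers, which name the preimmune tracks igG and the input tracks WCE. The submitters' processing notes name dm3 and Partek 6.5. Which aligner was used, and how duplicates and multiply placed reads were handled, was not stated in these sources. Per the labels, chromatin was fixed in 1.8% formaldehyde and libraries were amplified for 15 PCR cycles; the effect of PCR duplicates on the counts was not tested. Counts are whole and unscaled. The chromosome and lists were chosen with earlier results of these data known.

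Windows were summed to 1 kb and 10 kb and scaled to reads on the 6 major arms. Calls needed 2-fold and 20 reads over both libraries at 1 kb, or 1.5-fold and 50 reads at 10 kb. A pseudocount of 0.5 entered log2 ratios but not printed ratios. Named windows are the 6 highest and 4 lowest by mean log2 ratio for preimmune over input, the 4 highest and 6 lowest for su(Hw)f over wild type, the 3 highest and 3 lowest for the difference between genotypes, the 3 fullest per library, the 6 longest runs called lower and every run called higher. Of the rule's 4 longest empty runs, 3 are terminal or nearly so, and 1 further run is named. Ranked windows needed 20 reads per pair and, except for the difference, the same direction in both comparisons. The calling rule was run on simulated counts with counting error only. Scatter in these libraries was larger than that, so the simulation does not give the rate of false calls here. Python 3.11.15, NumPy 2.4.6, SciPy 1.17.1, pandas 2.3.3 and Matplotlib 3.10.9 were used. Alternatives covered scaling, count minimum, window grid, window size, a stricter interval rule and removal of empty, fullest and terminal windows.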

Additional observations from a re-analysis of the deposited data

Results flagged for a closer look

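In 6 named windows of 1 kb, preimmune over input was above 1 in 1 genotype and below 1 in the other; none of these differences was tested. With a pseudocount of 0.5, the log2 ratio in su(Hw)f minus that in wild type was 3.55 at 52001 to 53000, where su(Hw)f had 22 preimmune and 3 input reads (ratio 7.54, 2.26 to 39.3) and wild type 10 and 21 (ratio 0.551, 0.231 to 1.22), and -0.17 on a grid shifted by 0.5 windows. It was 2.26 at 300001 to 301000, with ratios of 4.19 (2.69 to 6.78) in su(Hw)f and 0.861 (0.551 to 1.34) in wild type, and 0.82 on the shifted grid. It was -2.12 at 1047001 to 1048000, with ratios of 0.614 (0.404 to 0.921) in su(Hw)f and 2.69 (1.98 to 3.68) in wild type, the only one of the 6 whose intervals lie on opposite sides of 1, and -1.31 on the shifted grid.

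Smaller differences were 0.74 at 566001 to 567000, 0.72 at 87001 to 88000 and 0.83 at 1054001 to 1055000. The last of these had ratios of 1.06 in su(Hw)f and 0.597 in wild type.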

How the results depend on the processing

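No paired analysis was possible because every group holds a single library. With 1 library per group, depth limits single 1 kb windows. All 24 alternative values of the 4 chromosome ratios kept their direction, and 12 left the counting interval. For preimmune over input in su(Hw)f and wild type, scaling to 2L, 3L and 3R gave 1.54 and 1.58, scaling by the median 1 kb ratio 1.43 and 1.60, and leaving out windows empty in any library 1.56 and 1.59. The genotype ratio under the same settings was, in preimmune and input, 0.740 and 0.760, 0.708 and 0.787, and 0.757 and 0.773.

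Of 72 alternative window counts, 56 stayed within 1.5 times. The other window size gave, for preimmune over input at 10 kb, 81 higher and 0 lower in su(Hw)f and 86 and 0 in wild type, and, between genotypes at 1 kb, 18 higher and 272 lower in preimmune and 2 and 204 in input (that setting changes size, fold and minimum together). Without a count minimum, 12 windows were lower in su(Hw)f and 18 in wild type for preimmune over input, and 1 was higher in preimmune and 2 in input between genotypes. Doubling the minimum left 2 lower in su(Hw)f. Shifting the grid gave 5 lower in wild type, and 0 higher in input, as did leaving out the fullest windows.

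Comparing within classes of level, added after the data were seen, moved the excess of chromosome 4 over the large arms to 0.33 in su(Hw)f and 0.13 in wild type for preimmune over input and to -0.21 between genotypes in preimmune; in input it was -0.47 without classes and -0.37 within classes of mutant preimmune. Classes of wild-type preimmune left it at -0.47, but that library's ranks barely followed the inputs on the large arms, so they do not match input level.

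Of 66 alternative values of 33 named windows and runs, 6 reversed, all on a grid shifted by 0.5 windows. Mean log2 ratios became 1.20 at 952001 to 953000 and 1.55 at 477001 to 478000. No count minimum was applied on the shifted grid. The 1.55 rests on 3 preimmune and 4 input reads in the mutant and 0 and 1 in wild type. Differences became -0.17 at 52001 to 53000, -0.023 at 641001 to 642000 and 0.057 at 465001 to 466000. The input ratio of 1280001 to 1290000 became 0.811. A further 11 moved in size but kept their direction, all on the shifted grid, and 49 stayed. The moved ones include 949001 to 950000 (2.36 to 1.38), 217001 to 218000 (-2.36 to -1.11), 1012001 to 1013000 (-2.09 to -0.80) and 300001 to 301000 (2.26 to 0.82). The shifted windows hold other DNA; the cause was not tested further.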
